A study of Drosophila melanogaster with 4 samples.

Results

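Of 10626 genes counted by mRNA-Seq in Drosophila indirect flight muscle (IFM), 8 had at least 100 normalized counts in both w1118 libraries and under 20 in both libraries labelled bru1M3, with genes of the mitochondrial genome left out. They were CG17192, CG14275, phr, CG43222, asRNA:CR45600, lncRNA:CR44299, CG16904 and fipi. The members were chosen on the same values that are described here, so their levels and fold changes are given as a description with no test. The opposite pattern, under 20 in both w1118 and at least 100 in both bru1M3 libraries, was met by 19 genes.

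IFM, the fibrillar muscle that powers flight, was dissected from 1 d adults of both genotypes, which were kept at 27 °C. The control was w1118, and bru1M3 is a CRISPR allele in which a splice-trap cassette in front of a late exon truncates all isoforms of Bruno1. Each genotype had 2 libraries, each made from the pooled IFM of many flies, and all 4 libraries were poly-A selected. Nothing in the labels ties a w1118 library to a bru1M3 library.

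Bruno1 is an RNA-binding protein of the CELF family that directs fibrillar-specific alternative splicing in flight muscle. Genes of other tissues can appear in dissected muscle RNA because motor axons, tracheae, haemocytes, fat body and pieces of gut lie against the fibres. In bulk RNA of this kind, fewer cells of a type and less RNA per cell cannot be told apart.

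The libraries held 30384053 to 34105524 reads assigned to genes. Mitochondrial genes took 72.6% and 63.7% of the reads in w1118, and 41.2% and 29.0% in bru1M3, so nuclear genes were read less deeply in the controls. One read was worth 1.70 and 1.10 normalized counts in w1118, and 0.682 and 0.769 in bru1M3. Markers of fibrillar muscle were detected in every library, with 10 of 10 above 0 and summed levels of 1728690 and 1778340 in w1118, and 1825710 and 2766620 in bru1M3. The bru1 gene itself had 1807 and 1386 normalized counts in w1118, and 10618 and 9976 in bru1M3. Its total was thus higher in the mutant in both libraries (limma adjusted p = 0.000189), and because the count covers the whole gene, exons before the cassette included, it does not check the truncation. Over all genes, limma called 861 of 9228 tested genes lower in bru1M3, which is 9.33%, and 1185 higher, which is 12.8%.

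The 8 genes fell into no single family. A total of 3 encode enzymes, namely the lipase CG17192, the photolyase phr and the fatty acid elongase CG16904. A further 3 encode other proteins, namely the metallothionein CG43222 (MtnF in the newer annotation), the predicted Ly6-family protein CG14275 and the immunoglobulin-superfamily protein fipi. The last 2 are noncoding RNA genes, a class that made up 3.70% of the genes in the table. No member was at 0 in bru1M3, where each had 5 to 25 reads per library. Exact 95% Poisson intervals, which cover counting error only, were computed for each member in each library. The lowest bound in w1118 was 77.9 normalized counts, for fipi, and the highest bound in bru1M3 was 28.4, for CG14275. The rule chose the members on these same values, so the gap between the bounds largely follows from its thresholds. It is not a test of a difference between the genotypes. Within their own genotype the members lay between the 49.7 and 79.4 percentiles of all genes in w1118, and between the 9.04 and 20.9 percentiles in bru1M3.

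**Figure D1:**
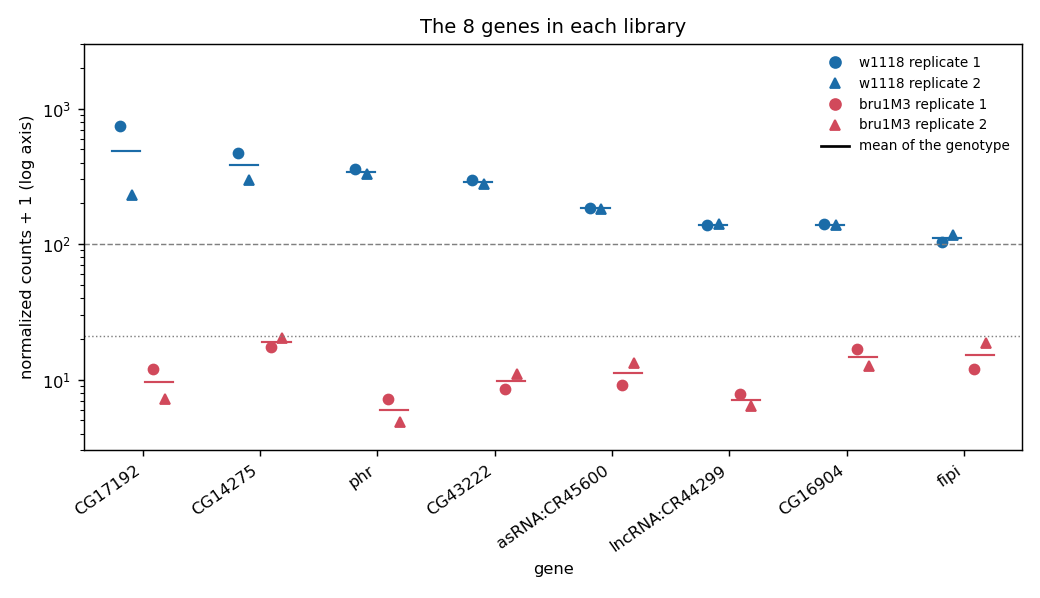
Normalized counts plus 1 (log axis) of the 8 genes in each of the 4 libraries, with a short line at each genotype mean. The dashed and dotted lines mark the thresholds of 100 and 20 normalized counts. The points of the genotypes do not overlap because the rule chose them so, and the w1118 points of CG17192 (740 and 231) lie farthest apart.

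CG17192 is a predicted lipase of a family whose members are mostly secreted by the adult midgut. It lies at 3R:27017180-27018287 on the minus strand. Its level was 740 and 231 normalized counts in w1118, and 10.9 and 6.15 in bru1M3. The w1118 mean was the highest of the 8, and the fold change on the log2(value + 1) scale was -5.49 (SE 0.59), the 7th largest fall among 9216 nuclear genes tested. Its w1118 libraries were far apart, with replicate 1 at 3.20 times replicate 2. Among 3152 nuclear genes with a w1118 mean in the range of the 8, 24 (0.761%) had a ratio of replicates at least that high, and the 5th to 95th percentiles ran from 0.602 to 1.60.

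phr encodes the photolyase that uses light to split the pyrimidine dimers made by ultraviolet radiation. It lies at 2R:7825289-7827319 on the plus strand. It had 356 and 328 normalized counts in w1118, and 6.14 and 3.85 in bru1M3. The bru1M3 values rested on 9 and 5 reads, with 95% Poisson intervals of 2.81 to 11.7 and 1.25 to 8.97 normalized counts. The w1118 replicates differed by a ratio of 1.09. With a log2 fold of -5.86 (SE 0.40), phr had the 2nd largest fall among the nuclear genes tested and the largest of the 8.

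CG16904 belongs to the ELO family, whose enzymes lengthen fatty acids in the endoplasmic reticulum. It lies at 3R:9815928-9816979 on the minus strand. The gene had 140 and 137 normalized counts in w1118, and 15.7 and 11.5 in bru1M3. Both genotypes had close replicates, and the log2 fold was -3.27 (SE 0.39).

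CG43222, at 3R:24634625-24635165 on the minus strand, encodes a metallothionein, a small cysteine-rich protein that binds metal ions such as copper, zinc and cadmium. Its values were 296 and 277 normalized counts in w1118, and 7.51 and 9.997 in bru1M3. The log2 fold was -4.89 (SE 0.37). Per kilobase of exon it had the highest w1118 level of the 8, 596 normalized counts per kb, against 462 for CG17192 and 391 for CG14275. In bru1M3 its level per kb was 18.2, the same as that of CG14275 to 3 significant digits.

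CG14275 is predicted to be a small membrane-anchored protein of the Ly6 family, whose best known fly members act in ion channel regulation and septate junctions. It lies at 2L:8327456-8332911 on the plus strand. It had 466 and 297 normalized counts in w1118, and 16.4 and 19.2 in bru1M3, where it was the most abundant of the 8. The w1118 ratio of replicates was 1.57, which 5.46% of the 3152 genes reached. The log2 fold was -4.31 (SE 0.35).

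fipi encodes a secreted or membrane protein with immunoglobulin domains, and takes its name from the faster courtship song pulses that follow its loss from neurons. The gene spans 2L:4734592-4794044 on the minus strand. It had 102 and 116 normalized counts in w1118, and 10.9 and 17.7 in bru1M3. These w1118 levels were the lowest of the 8 and just above the threshold, and its log2 fold of -2.88 (SE 0.43) was the smallest. Its w1118 level per kb of exon was also the lowest, 40.8.

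asRNA:CR45600 is a spliced noncoding RNA at 3R:15136985-15140121 on the minus strand, and no function is stated for it in the sources used. It had 184 and 181 normalized counts in w1118, and 8.19 and 12.3 in bru1M3, a log2 fold of -4.05 (SE 0.40). lncRNA:CR44299, at 2R:10782895-10785597 on the plus strand, lies within an intron of CG33144 on the opposite strand. This gene had 138 and 139 normalized counts in w1118, and 6.82 and 5.38 in bru1M3, a log2 fold of -4.30 (SE 0.44). Both RNAs had w1118 replicates within a ratio of 1.02, so the spread of CG17192 was not shared by the noncoding members.

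**Figure D2:**
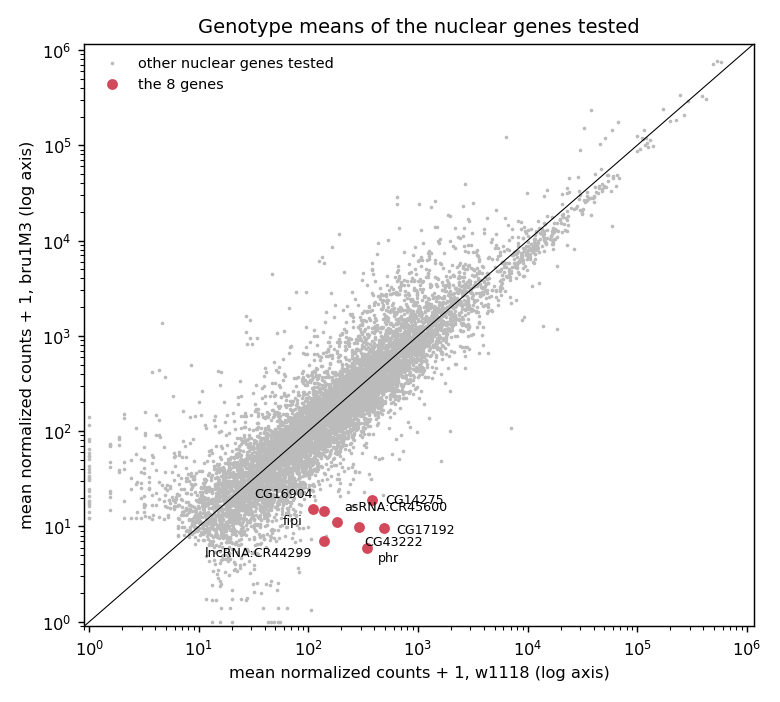
Mean normalized counts plus 1 of each nuclear gene tested in bru1M3 (vertical, log axis) against w1118 (horizontal, log axis), with the line of equal means and the 8 genes in red. The 8 genes lie below the line of equal means at w1118 means of 109 to 486, not among the most abundant genes of w1118. CG16904 and fipi had only the 61st and 85th largest falls of 9216 nuclear genes, so other genes lie as far below the line.

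The exon table gave the authors' mean signal over all libraries for 22 exon bins of 7 of the 8 genes. Some bins of phr and lncRNA:CR44299 were not listed. The table thus shows the signal of the listed bins but not the genotypes. In phr the bin of 1272 bases carried a mean of 303, against 16.6 for the first bin. Per kb these were 238 and 71.6, and the bin of 25 bases had 907. All 7 fipi bins had signal, from 11.2 to 43.1, including the most distant 5′ exon at 20.5. Per kb they ran from 36.7, in the bin of 1176 bases, to 128. In CG14275 the 4 bins ran from 23.9 in the first to 278 in the last. Per kb its first exon was also lowest, at 187, and the third bin, of 117 bases, was highest, at 1705. Reads can be longer than the shortest bins, which can raise the values per kb of those bins.

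The thresholds divide a continuous range of values. Just inside on the w1118 side were fipi, CG16904 and lncRNA:CR44299, with lowest w1118 values of 102, 137 and 138. Just outside it were bma with 141 and 85.5 in w1118 and 15.7 and 19.99 in bru1M3, lncRNA:CR44756 with 81.7 and 87.6 against 15.7 and 16.1, and CG11034 with 131 and 78.9 against 0.682 and 0. CG11034 was thus lower in bru1M3 than any of the 8, but had 1 control library under the threshold. On the bru1M3 side CG14275, fipi and CG16904 lay nearest inside, with highest bru1M3 values of 19.2, 17.7 and 15.7. The nearest genes outside were Jon25Bi, a midgut serine protease, with 216 and 301 in w1118 and 21.2 and 9.997 in bru1M3, CG3984 with 209 and 159 against 28.7 and 16.1, and CG13931 with 221 and 163 against 25.2 and 29.2.

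The 8 genes were not clustered in the genome. Arm 3R held 4 of them, 2L held 2 and 2R held 2, where these arms carry 24.99%, 18.4% and 20.4% of the genes in the table. None was on 3L, 4 or X. The closest pair, CG43222 and CG17192, were 2.38 Mb apart, and the other neighbouring pairs on an arm were 2.96 to 9.49 Mb apart. Thus 0 members lay within 50 kb of another, and the same held at 20 and 100 kb. bru1 lies on 2L, 3.84 Mb from CG14275 and 7.38 Mb from fipi.

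Genes beside the members were not used by the rule and could be tested. Among the adjacent gene of the table on each side, in order of start positions, 13 of 16 passed the filter on low values, and 4 of these were lower in bru1M3 and 1 higher. For comparison, the shares over all genes tested were 9.33% lower and 12.8% higher. Adjacent genes had a median log2 fold of -0.31, against -0.00012 for all tested genes. With the gene at the smallest distance on each side instead, a choice made after seeing the data, 12 were tested, 3 were lower and 2 higher, since RYa-R replaced CG6295 and atl replaced Wsck. With 3 genes on each side, 39 of 48 were tested, 6 were lower and 6 higher, and the median was -0.10, so the higher share was close to that of all genes. The lower genes were CG6295, CG31077, CG7781, CG6912, CG3984 and CG9458. The higher ones were TwdlT, puml, cathD, Syx18, atl and CG6966. The median of the adjacent genes was -0.28 and -0.35 without w1118 replicate 1 or 2, and -0.87 and -0.52 without bru1M3 replicate 1 or 2. Over all genes, too, calls were fewer with any 1 library left out. A call described below as lost is thus not particular to the gene it is given for.

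**Figure D3:**
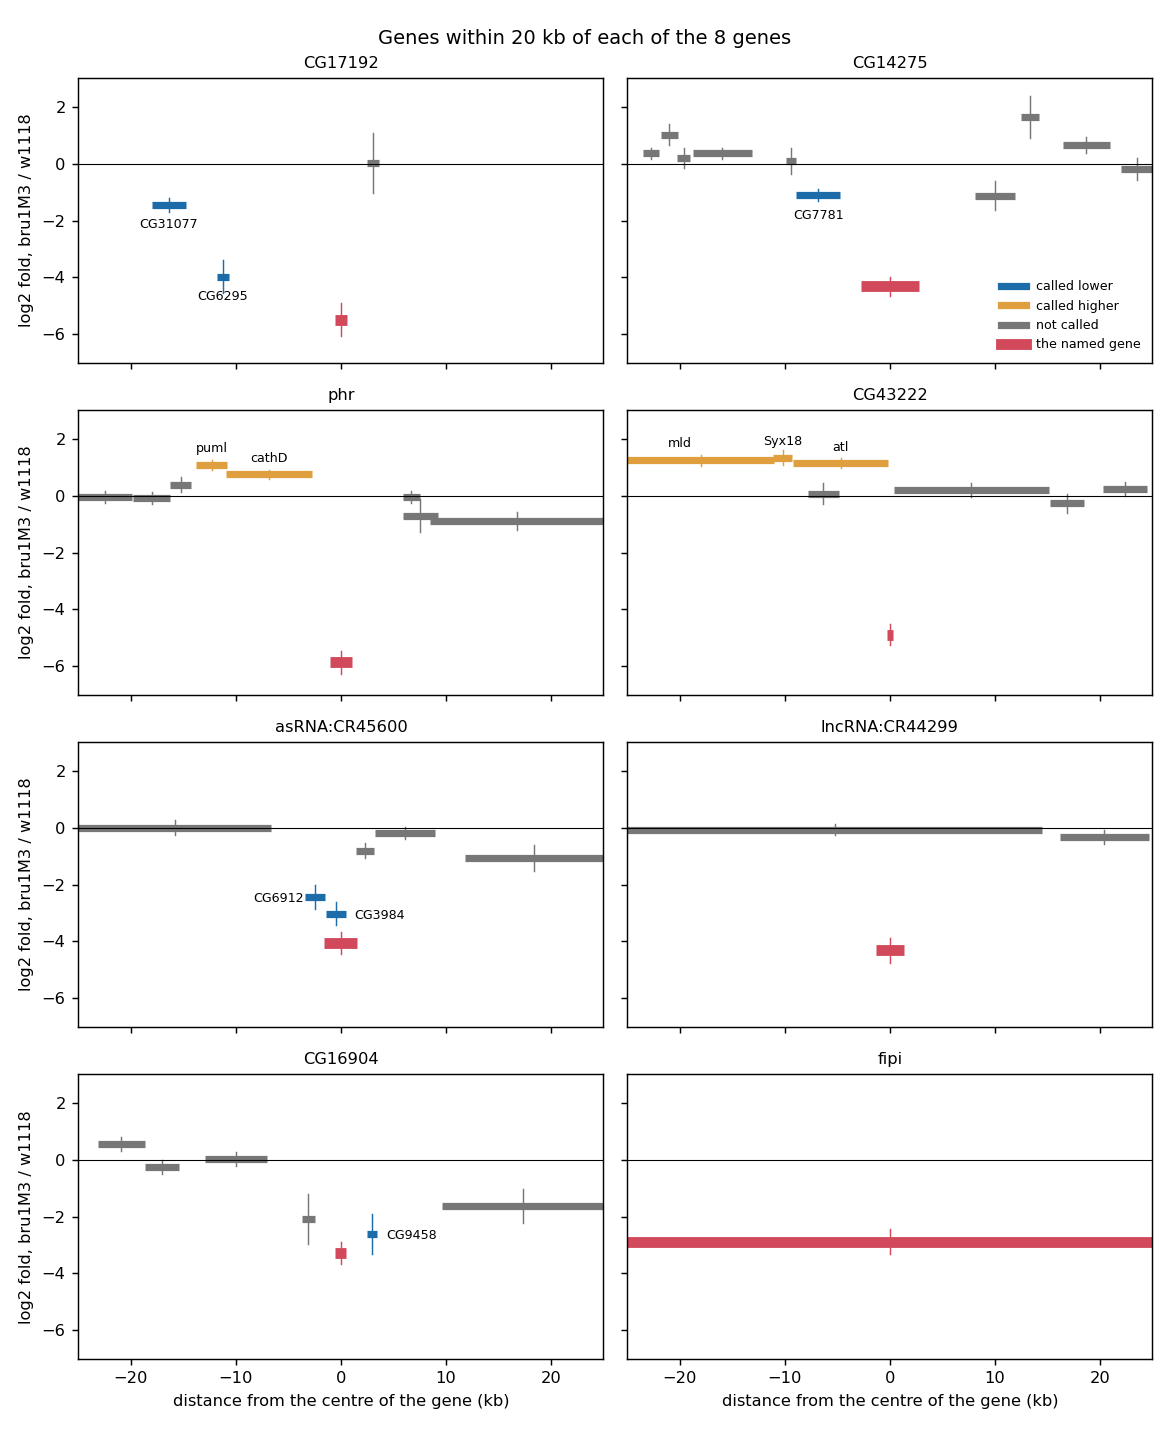
Log2 fold of bru1M3 over w1118 (vertical, bars of 1 SE) for every tested gene within 20 kb of each of the 8 genes, drawn as segments at their distance in kb from its centre. The asRNA:CR45600, CG17192 and CG16904 panels hold lower genes close by, while beside phr and CG43222 the named genes, puml, cathD, atl, Syx18 and mld, lie above 0.

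The lower neighbours lay around 4 of the 8 genes. Around asRNA:CR45600, 2 overlapping genes were lower. CG3984, on the opposite strand, had all of its exonic bases inside the exons of asRNA:CR45600, and these 1731 bases made up 59.4% of the exons of the RNA. It had 209 and 159 normalized counts in w1118, and 28.7 and 16.1 in bru1M3, a log2 fold of -3.02 (SE 0.40, limma adjusted p = 0.00244). CG6912, which shares 20 exonic bases with the RNA on the same strand, had 310 and 354 in w1118, and 38.9 and 93.8 in bru1M3, a log2 fold of -2.43 (SE 0.41, limma adjusted p = 0.00698). Both calls held when any single library was left out. CG3987, on the opposite strand with 104 shared bases, had 201 and 252 against 146 and 112 and was not called (log2 fold -0.81, SE 0.27, limma adjusted p = 0.0696). The libraries were stranded, but the strand setting of the counting is not given in the sources used here. CG3984 had more normalized counts than the RNA in 3 of the 4 libraries, although all of its exons lie inside those of the RNA in the annotation used. If these exon models also held in the counting, it kept reads of both genes apart. The authors counted on an earlier annotation, whose exons were not compared here.

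CG17192 sits in a run of lipase genes of the same strand, and CG17192 itself lies inside RYa-R, a receptor gene on the opposite strand that had 0 and 2.19 normalized counts in w1118, and 8.19 and 3.85 in bru1M3. CG6295, a midgut lipase 10124 bases away, had 3119 and 775 normalized counts in w1118, and 112 and 86.1 in bru1M3. Its w1118 ratio of replicates was 4.03, close to the 3.20 of CG17192, with the higher value in the same library. The log2 fold was -3.97 (SE 0.57, limma adjusted p = 0.00337), and the call was lost without either bru1M3 library. CG6283, the nearest gene of the table on the other side, had 13.6 and 15.3 against 49.8 and 3.85, so its bru1M3 libraries lay on both sides of the controls and it was not called (log2 fold 0.02, SE 1.06, limma adjusted p = 0.991). CG6277 was at 0 in both w1118 libraries and had 33.4 and 5.38 in bru1M3, and CG6296 had 10.2 and 5.48 against 0 and 0. Neither passed the filter. CG17191, which lies nearer than CG6283, was not analysed here. CG31077, of unstated function, had 2097 and 3568 in w1118, and 961 and 1047 in bru1M3 (log2 fold -1.45, SE 0.26, limma adjusted p = 0.00813), a call that was also lost without either bru1M3 library.

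Beside CG16904 lie 3 more elongase genes of the table, and eloF, also close by, was not analysed here. CG9458 had 39.1 and 31.8 normalized counts in w1118, and 2.73 and 8.46 in bru1M3, a log2 fold of -2.61 (SE 0.69, limma adjusted p = 0.0352), a call that was lost when any single library was left out. CG8534 had 73.2 and 15.3 against 4.09 and 12.3 and was not called (log2 fold -2.08, SE 0.88, limma adjusted p = 0.134). CG9459 had 0 and 10.96 in w1118 and 0 in both bru1M3 libraries and was not tested. Only CG9458 was thus called, and the w1118 means of all 3 were well under that of CG16904. CG7781, which lies 2046 bases from CG14275 on the opposite strand, had 1227 and 1420 in w1118, and 523 and 721 in bru1M3, a log2 fold of -1.10 (SE 0.21, limma adjusted p = 0.0111) that was not called without bru1M3 replicate 1.

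**Figure D4:**
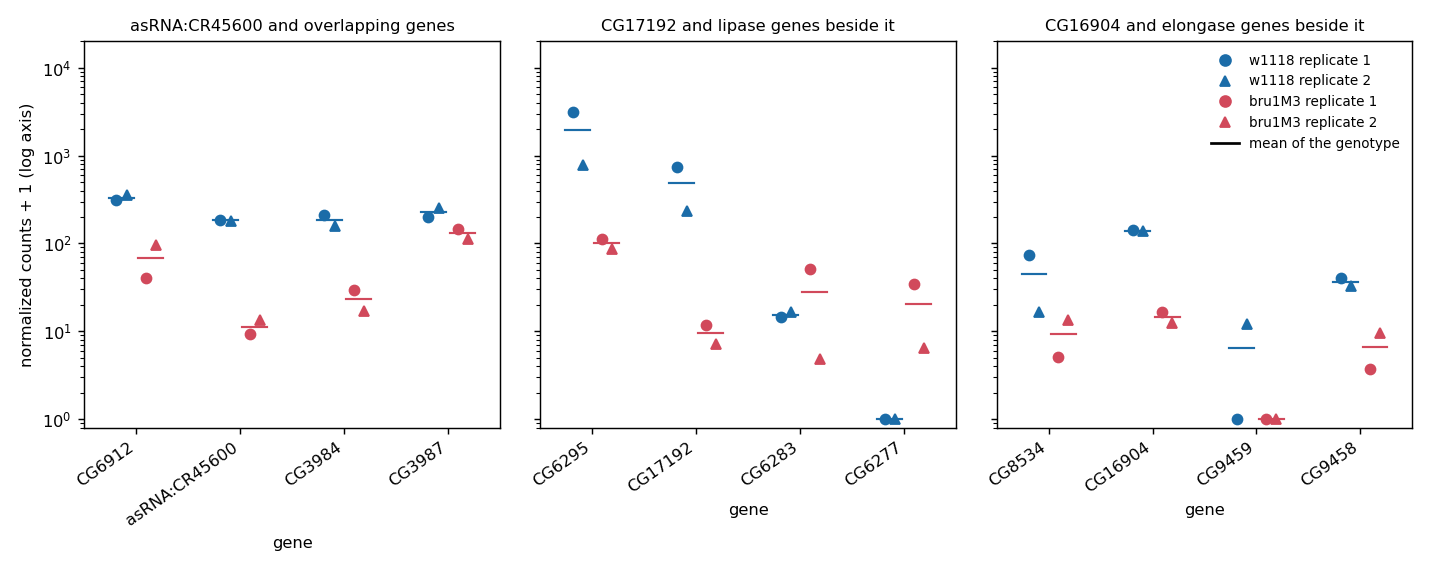
Normalized counts plus 1 (log axis) in each library for asRNA:CR45600, CG17192 and CG16904 and genes that overlap or lie beside them, with a line at each genotype mean. CG6912, CG3984, CG6295 and CG9458 share the lower bru1M3 values of the gene they lie beside, whereas the genotypes overlap for CG6283.

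Around the other genes no neighbour was called lower. CG43222 overlaps the end of atl, the gene of the membrane fusion GTPase atlastin, on the opposite strand over 90 exonic bases, 18.7% of its exons. atl had 905 and 783 normalized counts in w1118, and 1763 and 1955 in bru1M3, a log2 fold of 1.14 (SE 0.17, limma adjusted p = 0.00415), opposite to CG43222. puf, 104 bases away on the other side, was not called (log2 fold 0.21, SE 0.24, limma adjusted p = 0.572). Syx18, a syntaxin, had 119 and 98.6 against 317 and 238 (log2 fold 1.34, SE 0.27, limma adjusted p = 0.0131), a call lost without either bru1M3 library.

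For phr, the nearest gene of the table before it was cathD, the lysosomal protease cathepsin D, with 1823 and 1679 normalized counts in w1118, and 3056 and 2835 in bru1M3. It was called higher (log2 fold 0.75, SE 0.16, limma adjusted p = 0.0164), but not after quantile normalization or scaling to nuclear totals, nor without either w1118 library or bru1M3 replicate 1. puml had 580 and 507 against 1232 and 1082 (log2 fold 1.09, SE 0.18, limma adjusted p = 0.00614), and was not called without bru1M3 replicate 1. CG12822, on the other side, was not called (log2 fold -0.04, SE 0.23, limma adjusted p = 0.912). The last 17 bases of phr overlap Prosalpha1 on the opposite strand, and the neighbouring pair CG18853 and Prosalpha1R overlap by 17 bases in the same arrangement. These 3 partners and CG30383, which lies between cathD and phr, were not analysed here, and whether reads of phr are shared with CG18853 was not tested.

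CG33144, the host of lncRNA:CR44299, had 373 and 398 normalized counts in w1118, and 351 and 384 in bru1M3, and was not called (log2 fold -0.07, SE 0.19, limma adjusted p = 0.828). It shares no exonic base with the RNA. Its level lay close in both genotypes while the RNA within its intron was low in bru1M3. Near fipi, CG42523, which is nested in an intron on the opposite strand, had 0 and 24.1 against 0.682 and 0 and was not tested, and CG3294 (log2 fold -0.26, SE 0.58, limma adjusted p = 0.781) and slf (log2 fold -0.56, SE 0.27, limma adjusted p = 0.179) were not called. The 2 remaining higher neighbours were TwdlT, a cuticle protein gene, with 51.1 and 52.6 against 205 and 158 (log2 fold 1.78, SE 0.30, limma adjusted p = 0.00651), and CG6966, with 1317 and 1929 against 5020 and 6277 (log2 fold 1.82, SE 0.23, limma adjusted p = 0.00188). The call of TwdlT was lost without either bru1M3 library.

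Genes that share a list with a member were also tested, 214 in all, of which 37 were lower and 30 higher, with a median log2 fold of -0.27. For comparison, 9.33% of all tested genes were lower and 12.8% higher. The lists were gut digestive enzymes, light and excision DNA repair, and long noncoding and antisense RNA genes.

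Gut digestive enzymes, the list of CG17192, did not move one way. Of 49 other members tested, 14 were lower, 17 higher and 18 not called, and the median log2 fold was 0.02. CG12374, a midgut carboxypeptidase, was lowest by fold, with 10902 and 3071 normalized counts in w1118, and 136 and 80.0 in bru1M3, a log2 fold of -5.78 (SE 0.55, limma adjusted p = 0.000552). The trypsin gene epsilonTry had 778 and 182 against 36.2 and 4.61 (log2 fold -4.71, SE 0.96, limma adjusted p = 0.0142, not called without either bru1M3 library). Jon25Bi fell from 216 and 301 to 21.2 and 9.997 (log2 fold -4.04, SE 0.44, limma adjusted p = 0.000973). As with CG17192 and CG6295, CG12374 and epsilonTry were several times higher in w1118 replicate 1 than in replicate 2, at ratios of 3.55 and 4.28, while Jon25Bi was not, at 0.717. The rises with the largest folds were CG8093, LManIII, LManVI, lambdaTry, mag, LysD and CG8562, with 0 to 47.1 in w1118 and 13.0 to 1706 in bru1M3. Each of these calls was lost without bru1M3 replicate 2. Jon25Biii, with a smaller rise (log2 fold 4.78), kept its call whichever library was left out, at folds of 3.27 to 5.39 over the alternatives. The summed level of the 57 listed genes in the table was 65387 and 39263 in w1118, and 29547 and 18675 in bru1M3, with 14 and 7 genes at 0 in w1118 and 0 and 1 in bru1M3. The part of gut tissue in the level of CG17192 was not tested. The median log2 fold of the 49 genes was -0.01 and 0.06 without w1118 replicate 1 or 2, and -0.31 and 0.68 without bru1M3 replicate 1 or 2.

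None of the other genes of light-dependent and excision DNA repair was called. Of 7 tested, 0 passed the threshold in limma, edgeR or DESeq2, none had an unadjusted limma p under 0.05, and the median log2 fold was 0.21. cry, the blue-light receptor related to photolyases, had 585 and 681 normalized counts in w1118, and 663 and 536 in bru1M3 (log2 fold -0.08, SE 0.20, limma adjusted p = 0.795). phr6-4, the photolyase of the other ultraviolet lesion, had 0 and 2.19 against 4.09 and 6.92 and was not tested. hay, a helicase of excision repair, had 143 and 119 against 151 and 123 (log2 fold 0.06, SE 0.27, limma adjusted p = 0.896).

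Of 158 other long noncoding and antisense RNA genes tested, 23 (14.6%) were lower and 13 (8.23%) higher, and the median log2 fold was -0.39. The shares over all tested genes were 9.33% lower and 12.8% higher. The median was -0.48 and -0.30 with w1118 replicate 1 or 2 left out, and -0.41 and -0.31 with bru1M3 replicate 1 or 2 left out. lncRNA:CR44914 had 44.2 and 39.4 normalized counts in w1118 and 0 in both bru1M3 libraries (limma adjusted p = 0.00447, log2 fold -5.42 with the pseudocount of 1). lncRNA:CR45670 had 49.4 and 39.4 against 3.41 and 0 (log2 fold -4.43, SE 0.90, limma adjusted p = 0.0143). The other lower RNAs with the largest falls were lncRNA:CR46002, with 78.3 and 24.1 against 0 and 3.08, lncRNA:CR44295, with 25.5 and 26.3 against 1.36 and 0, lncRNA:CR44440, with 11.9 and 17.5 against 0 and 0, and lncRNA:CR42874, with 23.8 and 23.0 against 0.682 and 0.769. These 6 RNAs stayed under 80 normalized counts in w1118. With at least 100 in both w1118 libraries the rule would have made them members. All but lncRNA:CR44914 lost the call when at least 1 single library was left out. In the other direction asRNA:CR42860 rose from 37.4 and 18.6 to 1565 and 1393 (log2 fold 5.75, SE 0.34, limma adjusted p = 0.00013). asRNA:CR44169 had 18.7 and 0 against 132 and 161, and lncRNA:CR44948 had 0 and 0 against 38.2 and 21.5. asRNA:CR44169 was not called without either bru1M3 library, with a pseudocount of 0.1 or by DESeq2, and lncRNA:CR44948 was not called without bru1M3 replicate 1.

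Elongases and metallothioneins were looked up after the values were seen, and their values are given with no test. Of 14 elongase genes in the table, 7 had both bru1M3 values under both w1118 values and 1 had both above. The 7 include CG16904, which the rule placed there in advance. For comparison, 29.8% of nuclear genes had both under, and the share with both above was not computed. Among the abundant ones, bond was at 6048 and 5678 in w1118 and 4863 and 7004 in bru1M3, and CG31522 was at 2859 and 3121 against 2864 and 3200. CG18609 had 15.3 and 37.2 against 0 and 1.54, and CG6660 had 15.3 and 14.2 against 0 and 0.769, so both were rare in w1118 too. Of the metallothioneins, MtnA had 1964 and 2261 against 1712 and 1380, and MtnB had 27.2 and 8.76 against 156 and 34.6. MtnE had 42.5 and 73.4 against 25.9 and 40.8. Of the 6 metallothioneins, 3 had both bru1M3 values under both w1118 values and 2 had both above. The 3 include CG43222, which the rule placed there.

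Beside fipi, 5 of 8 neuron markers were lower, 3 were not called and 0 were higher, where 9.33% of all tested genes were lower and 12.8% higher. The markers had a median log2 fold of -1.32, and none was at 0 in any library. Their summed level was 5311 and 8350 normalized counts in w1118, and 2036 and 3282 in bru1M3. nSyb, the synaptic vesicle protein synaptobrevin, had 1103 and 1827 against 407 and 503 (log2 fold -1.65, SE 0.27, limma adjusted p = 0.00552), while elav, the pan-neuronal RNA-binding protein, had 230 and 180 against 109 and 190 (log2 fold -0.49, SE 0.33, limma adjusted p = 0.316). Their median log2 fold was -1.68 and -0.87 with w1118 replicate 1 or 2 left out, and -0.87 and -1.77 with bru1M3 replicate 1 or 2 left out. The part of nervous tissue in the level of fipi was not tested.

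Of 8 haemocyte markers, 6 were lower and 0 higher (median log2 fold -1.06), where 9.33% of all tested genes were lower and 12.8% higher. Fat body had 1 of 7 lower and 1 higher and glia 1 of 5 lower, while 0 of 4 tracheal, 0 of 6 Malpighian tubule and 0 of 4 testis and accessory gland markers were called. The 1 ovary marker in the table was not tested. Of 7 tubular muscle markers, 2 were lower and 2 higher (median log2 fold -0.58). Their summed level was 6467 and 12725 in w1118, and 61563 and 32564 in bru1M3. Photoreceptor markers had 0 of 13 called, with a median log2 fold of -2.76. They summed to 5505 and 896 in w1118 and to 519 and 1029 in bru1M3. Thus w1118 replicate 1 stood apart in them as it did in CG17192.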

How the data were processed

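IFM mRNA from 2 w1118 and 2 bru1M3 samples was analysed. The authors mapped the reads with STAR 2.7.3a, counted them per gene with featureCounts (Subread 2.0.0) and divided the counts by 1 DESeq2 size factor per library, so the deposited values are a signal in normalized counts. Whole reads were recovered from the steps between values for 100% of values (tolerance 0.01 reads). Gene models were those of BDGP6, and coordinates were read from a newer Ensembl annotation than that of the authors, to which 99.7% of genes matched. All 22 exon bins of the members lay inside annotated exons.

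Genes with at least 10 normalized counts in 2 libraries were kept (9228 of 10626), and log2(value + 1) was tested with limma 3.58.1 (Benjamini-Hochberg adjusted p under 0.05). An exact permutation test of 2 against 2 libraries cannot reach 0.05, so calls rest on the spread shared across genes. The replicates were dissected IFM samples, with nothing on whether the flies came from separate cultures, so p-values measure only the spread between these libraries. edgeR 4.0.16 and DESeq2 1.42.0 on the recovered reads were alternatives. The exon table gave the authors' mean signal, and 4 of its per-library columns, which matched no sample, and the authors' fold changes and p-values were not used.

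The members and gene lists were chosen with earlier results of these data known. Named were all members, the 3 nearest genes outside each threshold, and the 10 neighbours or relatives with the largest called change in each direction. Rises among relatives are mostly given as a range.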

Additional observations from a re-analysis of the deposited data

How the results depend on the processing

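The number of genes that met the rule depended on the thresholds. It was 37 at a w1118 minimum of 50, 4 at 200, 3 at a bru1M3 limit of 10 and 20 at a limit of 40, against 8. Leaving out 1 library at a time gave 9 to 18 genes, and the 8 are among them by construction. Scaling to equal totals of nuclear genes kept all 8, and quantile normalization kept 7, without CG14275. Over the alternatives the log2 fold of CG17192 ranged from -6.33 to -4.53 and that of fipi from -3.20 to -2.30.

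Over all genes, 861 were lower, and 126 to 505 when 1 library was left out, or 223 at an adjusted p under 0.01. Adjacent genes called lower numbered 2 to 5 over the single libraries left out, against 4. Relatives called lower numbered 12 to 36 in the same way and 11 at an adjusted p under 0.01, against 37. Equal totals of nuclear genes moved the median log2 fold of all genes to -0.13 and gave 1133 lower and 943 higher genes, and quantile normalization gave 1177 and 1079, against 861 and 1185. With a replicate block 1029 genes were lower and 1265 higher, with 4 adjacent genes and 43 relatives lower. The numbers did not pair the libraries, since the correlation of the replicate differences was 0.0274 over 9228 genes, and the samples share only a number.

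The 8 genes had 5 to 25 reads in each bru1M3 library, which limits the precision of every fold.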
